A study of Mus musculus with 8 samples.

Results

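The 81 oligonucleotide probes described here each hold a trinucleotide repeat run, out of 39429 non-control probes on an Agilent mouse expression array. A run was defined as 18 or more bases in which every base equals the base 3 positions before it and which is not a single repeated base. The sequence came from the deposited scanner files, where every probe is 60 bases long. Rotations of a unit were grouped, so that GAA, AAG and AGA count as one unit, while the reverse complement TTC counts as another. The runs were found in the sequence alone, but the set was chosen by measured values: GAA-repeat probes had been seen among those that differed between CKO and WT in earlier results of the same arrays. The genotype difference of these probes is therefore given as a description. Calls of a fit over all probes are counted beside the share of all probes called, and nothing is read from them.

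The study compared whole hippocampus RNA of C57BL/6 mice in 2 genotypes, all homozygous for a loxP-flanked Ctcf allele. Controls lacked Cre (WT), and conditional knockouts (CKO) also carried Camk2a-Cre, a transgene active in excitatory forebrain neurons, so other hippocampal cells keep their Ctcf and only the CKO mice carry Cre. Each genotype had 3 pools of RNA from 3 mice, all of which had gone through behavioural tests. The genotypes were matched by pool: 2 females with 1 male of 19 to 23 weeks in pool 1, 3 females of 18 to 19 weeks in pool 2 and 3 males of 15 to 17 weeks in pool 3. The RNA of pool 1 was hybridised on 2 arrays in each genotype, which makes 8 arrays on 2 slides. The first hybridisation of pool 1 shared slide 1 with pool 2, and the second shared slide 2 with pool 3.

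Trinucleotide repeats are microsatellites, tracts that gain and lose units when the copying polymerase slips. In coding sequence a CAG run encodes glutamine and a GAA run encodes glutamate, and long GAA or CAG tracts are known from inherited ataxias and other neurological repeat disorders. Such tracts also lie in introns and untranslated regions of many genes, and a probe made largely of one repeat can bind any labelled strand that holds the complement of the repeat. Its signal therefore need not come from the gene it is named for.

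The repeat probes fell into 12 of the 20 possible units, and the units were unevenly filled. GAA had 44 probes, GGA 13, TTG and CAA 5 each, CAG and CTG 3 each, CCG and ATG 2 each, and ATT, ACC, GGT and TCC 1 each. The reverse complement of the commonest unit, TTC, had 0 probes with such a run, and its longest run on the array was 15 bases. GGA and its complement TCC were as uneven, with 13 probes against 1, whereas CAA and TTG, and CAG and CTG, were evenly filled. Of the 44 GAA probes, 25 had the run starting at the first base of the probe, 17 had it ending at the last base and 2 had it inside. GAA runs were 18 to 51 bases long, with a median of 33. The 81 probe sequences were all distinct, and 5 probes held 2 runs.

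Most of these probes name no gene. Of the 81, 30 carried the symbol of a gene (25 genes) in the RefSeq gene table (GRCm38.p6), and 44 carried only their own probe ID. In the GAA unit 7 probes named 6 genes and 32 carried only an ID. The named GAA probes are listed under genes with no common role: Dcc, the netrin receptor of growing axons; Rhox8, a homeobox gene of the X-linked reproductive cluster; Gcm1, a transcription factor of placental trophoblast; Pigr, the receptor that carries polymeric immunoglobulin across epithelia; Gab3, a docking adaptor of growth factor signalling; and Ermn, a cytoskeletal protein of myelinating oligodendrocytes.

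The edges of the GAA runs show what those probes share and what differs. Each line is a stretch of at most 30 bases of the probe, 5′ to 3′, across an edge of its run (both edges for Ermn), and capitals mark the bases of the run. Positions count from 1 at the 5′ end of the probe, so the Rhox8 stretch covers bases 21 to 50 of a run that fills bases 1 to 44.
Rhox8: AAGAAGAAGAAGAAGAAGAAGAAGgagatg
Gcm1, long run: AGAAGAAGAAGAAGAAGAAGAAGAggagga
Gcm1, short run: GAAGAAGAAGAAGAAGAAGtagaagaagaa
Pigr: agaaggAGAAGAAGAAGAAGAAGAAGAAGA
Gab3: ccttctGAAGAAGAAGAAGAAGAAGAAGAA
Ermn: cgagGAAGAAGAAGAAGAAGAAGAAGtttg
The flanking letters differ from probe to probe and the capitals differ in where the repeat begins and in how many bases of the run the stretch holds. In the Pigr and long-run Gcm1 stretches the flank is also made of A and G alone, and in the short-run Gcm1 probe the run is broken by 1 other base, after which the repeat goes on.

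Probes of the other units are shown for contrast, again with the run in capitals. They are the named probes of longest run in their unit, or have a second probe for their gene.
Vash1, GGA: GGAGGAGGAGGAGGAGGAGGAGGAagggga
Cplx2, GGA: GAGGAGGAGGAGGAGGAGGAGGAGaagaag
Trem1, TTG: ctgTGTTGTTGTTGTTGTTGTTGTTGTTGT
Msl1, TTG: GTTGTTGTTGTTGTTGTTGTTGTTttaatg
Brsk1, CAA: gcagCAACAACAACAACAACAACAAaaata
Atp5g1, CAA: tttaccattaAACAACAACAACAACAACAA
Trp63, CAG: acagGCAGCAGCAGCAGCAGCAGCAccagc
Crebbp, CAG: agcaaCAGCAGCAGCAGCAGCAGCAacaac
Med1, CTG: ctattTGCTGCTGCTGCTGCTGCTGgagtt
Fkbp1a, CCG: aaCGCCGCCGCCGCCGCCGCCGCCatggga
GAA and GGA runs consist of purines alone, so they differ from the other units printed here in having no pyrimidine on the probe strand. GAA and GGA differ from each other by 1 letter in 3.

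All values below are log2 of the processed spot signal minus the 75th percentile of the array, so 0 is the brightness of that percentile and 1 unit is a 2-fold step. A probe counted as measured when all 4 arrays of WT, or all 4 of CKO, flagged it well above background. Of the 81 probes 76 were measured, and all 76 were well above background on all 8 arrays, so none entered through the knockout arrays alone. The 5 unmeasured probes were both ATG probes (one of them named Klra2), the ATT probe (Slc15a5) and 2 unnamed GAA probes with runs of 19 and 20 bases. Of the 20-base GAA probe, 0 of 4 WT arrays and 2 of 4 CKO arrays were well above background. Across the 39429 probes 23598 were measured.

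Across the series, the 75th percentile of the arrays ran from 2112 to 5104 intensity units, the share of spots flagged well above background from 59.2% to 66.0%, and 0 spots were saturated. The dimmest arrays were the second ones of pool 1, at 2112 in WT and 2883 in CKO. Ctcf, read by 1 probe whose place relative to the deleted part was not checked, was 1.00 ± 0.15 (SD, n = 3) in WT and 0.13 ± 0.07 in CKO, a difference of -0.87 (SE 0.13; limma, adjusted p = 0.158, or 0.0341 with the pool number as a block), and the pools did not overlap. Hippocampal excitatory neuron markers were measured for 5 of 6 genes, and their mean log2 level lay between 2.69 and 2.77 in WT and between 2.54 and 2.67 in CKO pools. Within that list Wfs1 differed by -0.91 (limma, adjusted p = 0.124, or 0.0181 with the block) and Slc17a7 by 0.35 (0.899, or 0.538). Of the 4 astrocyte markers, Gfap differed by 0.68 (limma, adjusted p = 0.533, or 0.0522 with the block). The others did not share that difference, with Aqp4 at 0.03, Slc1a3 at -0.04 and Aldoc at -0.16. The 4 choroid plexus markers (Ttr, Kl, Folr1 and Kcnj13) were measured on all arrays and had the widest range of mean levels among pools of the 7 lists, at 0.75 in WT pool 1, 2.15 and 2.53 in WT pools 2 and 3, and 2.26 to 2.77 in CKO pools. The part of that tissue in the values of the repeat probes was not tested. In whole tissue, fewer cells of a type and less RNA per cell cannot be told apart, and the labels say nothing of the pools' processing beyond their mice.

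The GAA probes were brighter in CKO than in WT pools, nearly all by the same amount. The median of the 42 measured GAA probes was 0.15, 0.31 and 0.07 in WT pools 1, 2 and 3 (mean 0.18 ± 0.12, SD, n = 3) and 0.91, 1.27 and 1.05 in CKO pools 1, 2 and 3 (mean 1.08 ± 0.18). The highest WT pool thus lay below the lowest CKO pool. The median of the probes' own differences was 0.88, or 1.85-fold, with quartiles of 0.83 and 0.94, and all 42 differences were above 0. Over all 23598 measured probes the median difference was 0.01, 52.1% were higher in CKO, and 0.805% had a difference at or above the GAA median. In 36 of the 42 GAA probes the 3 CKO pools lay above the 3 WT pools, and among all measured probes 6.0% had pools that did not overlap with CKO higher. Since the probes were chosen with this contrast known, nothing is read from that count.

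No GAA probe passed the limma test across all probes at an adjusted p of 0.05, where the 42 adjusted p-values ran from 0.137 to 0.999 and 0.0339% of all probes (8 of 23598, all of them higher in CKO) were called. At an unadjusted p under 0.05, 37 of the 42 were higher, against 3.0% of all probes that were higher and 2.31% that were lower. With the pool number as a block, the adjusted test called 21 of the 42 higher, against 0.267% of all probes (63 of 23598), so that GAA probes made up 33.3% of the probes called higher in that fit. These counts describe the chosen probes and are not independent evidence.

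The single arrays told the genotypes apart less cleanly than the pools. The GAA median was 0.90 on the first and -0.57 on the second array of WT pool 1, 0.31 on the array of WT pool 2 and 0.07 on that of WT pool 3. In CKO it was 1.05 on the first and 0.79 on the second array of pool 1, 1.27 in pool 2 and 1.05 in pool 3. The first array of WT pool 1 was thus above the second array of CKO pool 1, and this held probe by probe in 22 of the 42. In only 15 of the 42 probes did all 4 CKO arrays lie above all 4 WT arrays. The lowest array was the second array of WT pool 1 in 31 of the 42 probes and WT pool 2 in 10, and the highest was CKO pool 2 in 34.

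Pool by pool, the CKO minus WT median of the GAA probes was 0.75 in pool 1, 0.80 in pool 2 and 1.08 in pool 3, with 39, 42 and 40 of the 42 probes higher in CKO. Within pool 1 the 2 hybridisations gave different sizes. The first arrays, both on slide 1, gave 0.22 with 38 of the 42 higher, and the second arrays, both on slide 2, gave 1.25. Slide 1 as a whole gave 0.56 and slide 2 gave 1.19. Without the second array of WT pool 1 the median difference was 0.68.

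Both arrays of pool 1 carried the same RNA, so a difference between them involves no genotype. Both arrays also enter the contrast that chose the probes, so the step between them is not free of that choice. In WT pool 1 the GAA median changed by -1.28 from the first to the second array, with 40 of the 42 probes lower, whereas all measured probes had a median of 0.08 and 1.39% of them had a value at or below -1.28. In CKO pool 1 the GAA change was -0.22, with 39 of the 42 lower, beside 0.04 for all probes, of which 20.9% lay at or below the GAA change. Of the 23598 measured probes, 10800 were lower on the second array in WT and 10603 in CKO. In WT the step between hybridisations of the same RNA was therefore larger than the median difference between the genotypes. Unscaled, the median GAA signal was 8232 and 1427 intensity units on the first and second arrays of WT pool 1, 5764 in WT pool 2 and 4160 in WT pool 3. The CKO arrays gave 8182 and 4993 units for pool 1, 12324 for pool 2 and 9911 for pool 3. In each genotype the dimmer second array thus had the lowest GAA signal.

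Other units moved between the same arrays too, and not in the same direction. From the first to the second array of WT pool 1, the CAG median changed by 1.52, CCG by 1.26, and the single TCC and ACC probes by 2.02 and 1.84. The corresponding changes in CKO pool 1 were 0.61, 0.52, 0.86 and 0.73. The single GGT probe went the other way, by -1.22 in WT and -0.55 in CKO. GGA changed by -0.13 in WT and 0.00 in CKO, TTG by -0.20 and -0.18, CAA by 0.43 and 0.21, and CTG by 0.23 and 0.13. In each unit except GGA the change had the same sign in both genotypes, and in each unit including GGA it was larger in size in WT. What differed between the hybridisations was not tested.

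The probes that name a gene gave the same picture as the unnamed ones. The Dcc probe, with the longest GAA run at 51 bases, stood at 0.22, 0.74 and 0.19 in WT pools 1 to 3 and at 1.10, 1.49 and 1.25 in CKO pools, a difference of 0.90 (SE 0.18). Rhox8 read 0.45, 0.73 and 0.22 in WT and 1.24, 1.53 and 1.54 in CKO, a difference of 0.97 (SE 0.17). Its first and second arrays of WT pool 1 read 1.11 and -0.21, and those of CKO pool 1 read 1.35 and 1.13. For Dcc the arrays of WT pool 1 read 0.88 and -0.44, and those of CKO pool 1 read 1.30 and 0.90. In both probes every CKO pool was above every WT pool. In both, the step between the arrays of WT pool 1, -1.32, was also larger in size than the genotype difference.

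Gcm1 was read by 2 GAA probes, with runs of 44 and 19 bases. The longer one stood at 0.61, 0.97 and 0.31 in WT pools and 1.42, 1.80 and 1.48 in CKO pools, a difference of 0.93 (SE 0.19). The shorter one stood at -0.75, -0.31 and -0.90 in WT and -0.05, 0.37 and 0.32 in CKO, a difference of 0.86 (SE 0.20). The listed start positions of these probes are 1864 for the longer run and 1849 for the shorter, and their overlap was not tested. Both hold the same repeat and were read on the same arrays with the same RNA. The standard errors measure the spread between pools, which the 2 probes share. The closeness of their differences is therefore not agreement of separate readings.

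Gab3 read -0.68, -0.13 and -0.98 in WT pools and 0.08, 0.48 and 0.47 in CKO pools, a difference of 0.94 (SE 0.23). The Ermn probe read -1.51, -0.85 and -1.35 in WT and -0.64, -0.19 and -0.46 in CKO, a difference of 0.80 (SE 0.21). Pigr had the smallest difference of the named GAA probes, 0.63 (SE 0.19), from 0.38, 0.70 and 0.04 in WT to 0.81, 1.18 and 1.03 in CKO. In all 7 the WT and CKO pools did not overlap, as in 6.0% of all measured probes with CKO higher. The probes were chosen with this contrast known, so nothing is read from that count. The 7 named probes had a median difference of 0.90 and the 35 unnamed ones 0.88.

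A few unnamed probes departed from that common size. Of the 42 differences, 35 lay between 0.6 and 1.2, 3 were lower and 4 were higher. The largest, 1.99, came from a probe with a 21-base run at its 5′ end, which read -0.59, -3.13 and -0.38 in WT pools and 0.38, 0.89 and 0.59 in CKO pools. Next were 1.70 (run of 30 bases) and 1.67 for 2 probes, one with a 23-base run and a clone-named one with a 31-base run. In all 4, WT pool 2 was the lowest value by more than 1 unit, and without that pool their differences were 1.11, 1.07, 0.98 and 1.12. Without WT pool 2 these 4 probes thus lay within the range of the other GAA probes.

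The 3 smallest differences were 0.07, 0.12 and 0.28. The lowest came from a clone-named probe that joins a 32-base GAA run to a GGA run, with 2.63, 2.38 and 2.21 in WT and 2.51, 2.49 and 2.43 in CKO. The 0.28 came from a probe with a 25-base GAA run and an ACC run, at 3.12, 2.01 and 2.16 in WT and 2.86, 2.58 and 2.69 in CKO. The 0.12 came from a 22-base run, at 3.49, 2.67 and 3.07 in WT and 3.28, 3.20 and 3.10 in CKO. In these 3 probes the pools of the genotypes overlapped. The remaining probes with 2 runs gave 0.74 (2 GAA runs), 0.11 (GGA with GAA, counted under GGA) and -0.04 (2 GGA runs).

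The position of a probe on the array went with its value on single arrays. A deviation was taken as a probe's value on an array, minus its own median over the 8 arrays, minus the same quantity's median over the GAA probes. The array has 85 columns of spots, and all 7 GAA probes in columns 1 to 18 were more than 0.5 below 0 on the array of WT pool 2 (median -1.06, range -2.43 to -0.69). Elsewhere 2 of 35 were, in columns 23 and 28. For all measured probes the same quantity was centred on the median of all measured probes instead. On that scale 231 of 4857 probes in columns 1 to 18 and 1007 of 18741 elsewhere were more than 0.5 below 0 on that array. The bound of column 18 was chosen after these values were seen. On the array of CKO pool 3, 2 of those 7 probes and 1 of the other 35 deviated that far. The 7 had a median genotype difference of 1.16 and the other 35 of 0.88. The part of array position in these values was not tested beyond these counts.

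Run length and the size of the difference were set side by side among the members. Across the 42 GAA probes, which share arrays, RNA and the repeat itself, the correlation of run length with the CKO minus WT difference was r = -0.02 (Spearman's rho = 0.12), given as a description. Over the 27 probes in columns over 28, a bound chosen after seeing the data, it was r = 0.29, and over the 7 named probes alone it was 0.35. Runs of 18 to 20 bases (2 probes) had a median of 0.81, those of 21 to 26 (10 probes) 0.83, those of 27 to 35 (16 probes) 0.93 and those of 36 or more (14 probes) 0.88. Just inside the threshold lay an unnamed 18-base probe at 0.76 and the 19-base Gcm1 probe at 0.86. By the place of the run in the probe, the median was 0.88 for the 25 runs starting at the 5′ end, 0.88 for the 15 measured runs ending at the 3′ end, which is the end tethered to the glass on these arrays, and 0.87 for the 2 inside.

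Probes with shorter GAA runs are not members and are given for comparison. The 12 measured probes whose longest GAA run was 12 to 14 bases had a median of 0.25. The 4 measured probes with 16 or 17 bases ranged from 0.13 to 0.73, and the 2 highest of them were measured through the CKO arrays alone. Those 4 are printed with the run in capitals because they lie just outside the threshold.
Pnma2: cgtgagGAAGAAGAAGAAGAAGAcgcctac
B020031M17Rik: ttggccAGAAGAAGAAGAAGAAGtgagaaa
Akap7: agaagcaAAGAAGAAGAAGAAGAtagaggc
Sec61b: gtcatctGAAGAAGAAGAAGAAGgaaaaaa
Pnma2, of a family of neuronal antigens, read -1.90, -1.07 and -2.74 in WT and -1.51, -1.28 and -1.45 in CKO, a difference of 0.49. B020031M17Rik differed by 0.67 and Akap7, an anchor of protein kinase A, by 0.73. Sec61b, a subunit of the translocon of the endoplasmic reticulum, read 2.93, 2.68 and 2.81 in WT and 2.92, 2.84 and 3.03 in CKO, a difference of 0.13. Pools overlapped for Pnma2 and Sec61b and did not for B020031M17Rik and Akap7, both of which were well above background on 3 of the 4 WT arrays and on all 4 CKO arrays.

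No probe had a TTC run of 18 bases, but 4 measured probes had TTC runs of 12 to 15 bases, and all 4 had a lower CKO mean, with differences from -1.18 to -0.33. All 4 were also brighter on the second than on the first array of WT pool 1, by 1.52 to 2.19, and without that second array the differences were -0.85 to -0.05. One of the 4 was well above background on all 4 WT arrays and on 1 CKO array, so it was measured through the group where it was brighter. The one with the longest run, named here after its value was seen, was Gm16287, a predicted gene.
Gm16287: ctatgttattcCTTCTTCTTCTTCTTtttt
It read -1.65, -2.52 and -1.98 in WT and -2.40, -2.96 and -2.93 in CKO, a difference of -0.72, with overlapping pools. Its arrays of WT pool 1 read -2.41 and -0.89, and without the second of them the difference was -0.46. With 4 probes, all below the run length of the definition, this is a description of those spots.

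For 4 genes of the GAA unit a second probe without a run was measured, which gives the same transcript name on the same arrays without the repeat. For Ermn that probe read 1.16, 1.46 and 1.83 in WT and 1.44, 1.67 and 1.63 in CKO, a difference of 0.10 (SE 0.18), beside 0.80 for its run probe. For Gab3 it differed by 0.16 (SE 0.17), beside 0.94. For Rhox8 it read 0.15, -1.42 and -0.997 in WT and -0.46, -1.10 and -0.97 in CKO, a difference of -0.09 (SE 0.37), beside 0.97. For Gcm1 it differed by 0.31 (SE 0.22), beside 0.93 and 0.86 for its run probes. By its listed start position, the Gcm1 probe without a run begins where the long-run Gcm1 probe ends. Its difference, 0.314252, equals the upper quartile of the 21 measured probes with a purine tract of 30 to 60 bases and no run. With 21 probes that quartile is the value of 1 probe, so this partner appears to hold such a tract. How closely its bases match the repeat was not tested. In each of the 5 pairs the run probe had the larger difference, by a median of 0.71 (0.55 to 1.06). The 5 pairs cover 4 genes, and both Gcm1 run probes were set against the same partner, so the Gcm1 pairs are not separate. The pools of the genotypes overlapped for the Ermn, Rhox8 and Gcm1 probes without a run and did not for that of Gab3. No probe of Dcc or Pigr outside the repeat was well above background on any array, nor was a further Gcm1 probe, so for these the run probe was the signal that stood above background. Whether 2 probes of a gene read the same transcript form was not tested.

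In the other units the run probes and their partners lay closer together. Over 18 pairs in 8 genes the median gap was -0.10 (range -0.68 to 0.12), with the run probe higher in 4 of 18. Med1, a Mediator subunit, had 3 partners at 0.29, -0.07 and 0.53 beside -0.15 for its CTG probe. The partner at 0.53, which gave the gap of -0.68, was well above background on 3 WT arrays and 4 CKO arrays. It was thus measured through the CKO arrays alone, where it was brighter. The same held for the partner of the other named CTG probe, at 0.12. Cplx2, a complexin of synaptic vesicle release, had 3 GGA probes at -0.08, 0.10 and 0.08. Its partners without a run differed by -0.02 and 0.38, and the latter had a WT SD of 0.94, so the gap lay within the spread.

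The GGA probes, the other purine unit, did not share the GAA difference. Their median was 2.94, 2.72 and 2.38 in WT pools (mean 2.68 ± 0.28) and 2.59, 2.55 and 2.62 in CKO pools (mean 2.59 ± 0.03), and the CKO pools lay within the WT range. The median difference over the 13 probes was -0.05 (range -0.52 to 0.11), with 4 higher and 9 lower. Vash1, which encodes a tubulin-detyrosinating enzyme also known from blood vessels, had the longest run of any member, 52 bases, and read 3.13, 2.81 and 2.74 in WT and 2.88, 2.90 and 3.16 in CKO. A second Vash1 probe with a 41-base run had the value of -0.52, from 3.02, 3.09 and 2.73 in WT to 2.59, 1.73 and 2.96 in CKO. CKO pool 2 alone stood low there, and the pools overlapped. Cplx2's probe with a 44-base run read 3.14, 2.88 and 2.68 in WT and 2.95, 2.81 and 2.68 in CKO.

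The 5 TTG probes all had a lower CKO mean, with a median difference of -0.28 (range -0.33 to -0.13). The median was -0.13 without WT pool 2, -0.42 without WT pool 3 and -0.10 within slide 2. Their median was 0.46, 0.83 and 0.27 in WT pools and 0.18, 0.11 and 0.28 in CKO pools, so WT pool 3 lay below CKO pool 3. Trem1, a receptor of myeloid cells and the probe of longest TTG run, was itself the median probe in each of the 6 pools. Msl1, a subunit of a histone acetyltransferase complex, read 1.50, 1.48 and 1.43 in WT and 1.35, 1.28 and 1.39 in CKO. Pools of 2 of the 5 TTG probes did not overlap, with CKO lower, as in 5.21% of all measured probes. Pool by pool the difference was -0.23, -0.63 and 0.01, so WT pool 2 carried the largest share.

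The remaining units had median differences from -0.15 (CTG) to 0.13 (ACC). Over all measured probes the quartiles were -0.11 and 0.15, so only the CTG median lay outside them. The CAA median difference was 0.05 over 5 probes, and its sign depended on single pools and on the scaling. It was -0.10 without WT pool 2, -0.05 without CKO pool 1, -0.12 within slide 2, 0.23 without WT pool 1 and -0.01 when arrays were scaled to their median. Brsk1, a kinase of neuronal polarity, was read by 2 CAA probes with overlapping sequence, at 4.17, 3.53 and 3.74 in WT and 3.91, 3.77 and 3.90 in CKO for the first. Atp5g1, a subunit of mitochondrial ATP synthase, differed by -0.09. The 3 CAG probes had a median of -0.03, among them Trp63, a p53 family transcription factor, which read 2.75, 1.81 and 1.51 in WT and 2.21, 1.76 and 1.99 in CKO. Crebbp, a histone acetyltransferase, read 3.43, 2.44 and 2.35 in WT and 3.00, 2.57 and 2.41 in CKO. In both, pool 1 was the highest pool of its genotype, and the second array of WT pool 1 was the highest array, at 3.51 for Trp63 and 4.03 for Crebbp. The 3 CTG probes had a median of -0.15, with Med1 at 2.05, 1.97 and 2.04 in WT and 1.99, 1.83 and 1.80 in CKO. The CCG probes had a median of -0.02, with Fkbp1a, the binding protein of rapamycin, at 5.90, 5.02 and 5.28 in WT and 5.82, 5.22 and 5.27 in CKO. The single ACC, GGT and TCC probes differed by 0.13, 0.01 and -0.01. Together the 34 measured probes of units other than GAA had a median of -0.06, with 11 higher and 23 lower, and 0 of them passed the limma test with or without the pool block, where 0.0339% and 0.373% of all probes were called. At an unadjusted p under 0.05 the count was also 0.

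Probes that resemble the GAA members without holding such a run were measured alongside. AG dinucleotide runs of 18 bases or more, also pure purine, had a median difference of -0.02 over 5 probes, and CT runs had -0.19 over 7. AC runs had -0.05 over 26 probes and GT runs -0.19 over 61. Purine tracts without a run had a median of -0.02 at 20 to 29 bases (41 probes) and 0.13 at 30 to 60 bases (21 probes, from -0.10 to 0.67). Only trinucleotide runs of 18 bases or more were excluded there, so shorter GAA runs remain. Pnma2, with a 17-base run and a difference of 0.49, is among the tracts of 20 to 29 bases. The tract groups also share probes with the AG group, so these are not separate sets. The pyrimidine counterparts had -0.14 (48 probes) and -0.65 (4 probes). From the first to the second array of WT pool 1 their medians changed by 2.08 and 2.12. Within pool 1 they differed between genotypes by -0.06 and -0.31 on the first arrays and by -1.15 and -1.63 on the second. The 1081 measured probes named only by their own ID and without a run had 0.02. Among these groups, then, none had a median near the 0.88 of the GAA probes, and the long purine and long pyrimidine tracts had medians of opposite sign.

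The second hybridisation of WT pool 1 moved these groups as well. AG runs changed by -1.18 from its first to its second array, close to the -1.28 of GAA, while CT runs changed by 2.47 and AC runs by 1.26. In CKO pool 1 the changes were -0.54, 0.85 and 0.63. AG runs thus shared the step between hybridisations with the GAA probes, but their median was -1.84, -0.75 and -1.35 in WT pools and -1.43, -1.36 and -1.63 in CKO pools, which overlapped. GT runs stood out on another array, WT pool 2, at 2.47 against 1.68 to 1.89 on CKO arrays and 1.49 to 1.82 on the other WT arrays, and the TTG median was also highest there.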

How the data were processed

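The scanner files deposited by the authors hold 1 intensity per spot. They were made with Feature Extraction 11.5 (Agilent), as the submitters' processing notes say. Background was subtracted within each array and no step between arrays was applied to this intensity, per the file headers. Labelled sample was hybridised in the Cy5 channel alone, per the labels. The authors' deposited value table also holds intensities, with the step between arrays not given in the sources used here, and served as an alternative. The array count limits the precision.

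From these, the processed signal was taken to log2 and the array's 75th percentile over non-control spots subtracted. Spots with an outlier flag were dropped, and spots of a probe and both arrays of pool 1 were averaged (n = 3 pools per genotype). Probes were kept that all 4 arrays of either genotype flagged well above background and that had a value in every pool. All 23598 were fitted with limma 3.58.1 (lmFit, eBayes with trend, two-sided, Benjamini-Hochberg over probes, adjusted p threshold 0.05) in R 4.3.3, after a test on simulated data. P-values measure only the spread between these pools, and with 3 pools a side the smallest p of an exact permutation test is 0.1.

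Same-numbered pools deviated together across probes (correlations 0.54, 0.31 and 0.15 for pools 1, 2 and 3, all over 0.1), so blocked values are given; the labels give those pools the same sex and age makeup. Alternatives were other scalings, background correction and filters, the value table, pool and slide as blocks, single slides, first arrays alone, single pools or the second WT array left out, 1 probe per gene, and other run lengths. A further 2 were chosen after seeing the data: leaving out GAA probes in columns up to 28, and those without a gene name.

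Members, lists and rules were chosen with earlier results of these data known. Named were, leaving out clone and accession names, the probes of longest run per unit, the GAA probes of largest difference, genes with a second measured probe, the neighbours of the run threshold and Ctcf; other names were chosen after their values were seen. Symbols come from the RefSeq table (GRCm38.p6), which matched 27508 probes by accession, 3544 by symbol and 404 by synonym, while 7973 kept the name in the file. The files use another build, so no coordinates are given. Apart from the listed start positions of Gcm1 and Cplx2 probes, the place of a probe in its transcript was not analysed here.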

Additional observations from a re-analysis of the deposited data

How the results depend on the processing

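The GAA median difference, 0.88, stayed above 0 under the 24 alternatives run (0.56 to 1.19), being lowest within slide 1 (0.56), highest within slide 2 (1.19) and 0.68 without the second array of WT pool 1; leaving out each pool gave 0.77 to 1.01. Of 838 single GAA probe values under alternatives, 833 were above 0 and 5, from 3 probes, were not. With the replicate block (pool number) the GAA probes called higher rose from 0 to 21, and leaving out single pools gave 0 to 1, the 1 without WT pool 1. Over all probes, 8 were called higher, against 63 with the block, 4 with the value table, 0 within slide 2, 64 with first arrays alone, 56 without the second array of WT pool 1 and 1 to 15 without single pools. Called lower were 0, against 25 with the block, 5 within slide 1, 52 with first arrays alone, 36 without the second array of WT pool 1, 1 with 1 probe per gene and 0 to 6 without single pools. The step between the arrays of WT pool 1 was -1.52 with median scaling. The gap between GAA probes and partners of the same gene, 0.71, was 0.91 without a filter, 0.35 within slide 1, 1.11 within slide 2, 0.52 with first arrays alone, 0.46 without the second array of WT pool 1 and 0.58 to 0.91 without single pools, the highest without WT pool 2. The block changed no other unit's call count from 0. The cause of these changes was not tested. The second arrays, the dimmest, limit the precision of pool 1.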
